A study of Mus musculus with 2 samples.

Results

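The cells described here are keratinocytes of the mouse hair follicle caught with the transcripts of DNA replication but with few or none of the transcripts of mitosis. They were found among single cells sorted as hair follicle stem cells, the reservoir in the outer root sheath that feeds each new hair. Cells were kept when 1000 genes or more were detected and mitochondrial genes gave no more than 10% of the unique molecular identifiers (UMIs, counts of single captured transcripts). A kept cell was called a keratinocyte with at least 1 UMI of Krt5 or Krt14, the keratin pair of basal keratinocytes. It was called an S phase cell when at least 5 of 8 S phase genes were detected (Rrm2, Tyms, Mcm5, Mcm6, Gins2, Clspn, Hells, Uhrf1) together with at most 1 of 7 mitotic genes (Ube2c, Cdc20, Ccnb1, Cenpf, Hmmr, Plk1, Aspm). The rule found 362 such cells among 3879 kept keratinocytes of library 1 and 322 among 3005 of library 2, which made 684 of 6884 in all. The cells were named from their transcripts, and their DNA content was not measured.

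The series holds 2 single-cell libraries of 10x Chromium 3′ chemistry (version 3), prepared from wild type skin of strain C57BL/6;CD1 at postnatal day 32, in the growth phase of the hair cycle (anagen). Cells had been sorted for CD34, a surface protein of bulge stem cells, and for a green fluorescent histone H2B expressed from the promoter of keratin 14, so the sort favoured basal keratinocytes of the follicle. Both libraries belong to 1 group without any treatment, and all comparisons are therefore between classes of cells within the libraries. The p-values rest on how far the 2 libraries disagree about the differences between classes, pooled over all classes of the fit. Nothing in the labels says that the libraries came from separate animals, so this spread may be only technical.

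Before a cell divides it copies its genome once in S phase. Replication origins are licensed in G1 when the MCM helicase is loaded onto DNA, the helicase is switched on at the G1 to S transition by kinases and accessory factors such as Cdc45 and the GINS complex, and polymerases then copy both strands on a sliding clamp while new nucleosomes are assembled. Many of the genes for these steps are transcribed under E2F factors as cells leave G1, whereas the genes of mitosis are transcribed later, in G2. Follicle stem cells are largely quiescent in the resting phase of the hair cycle and divide during anagen.

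The S phase cells were set against 3 other classes of kept keratinocytes. The comparison class held 1731 and 1325 cells with at most 1 gene of each list. The mitotic class held 632 and 494 cells with at least 4 of the 7 mitotic genes. It had no limit on S phase genes, so many of its cells also carried them. Keratinocytes with 5 or more S phase genes and 4, 5, 6 and 7 mitotic genes numbered 53, 73, 64 and 47 in library 1. In library 2 they numbered 59, 58, 85 and 70. A middle class of 788 and 599 cells had 2 to 4 S phase genes and at most 1 mitotic gene. UMIs were summed over the cells of each class in each library, and levels are given as UMIs per 1000000 UMIs of that sum (CPM), library 1 first. Fold changes and p-values come from the quasi-likelihood test of edgeR, fitted with the library as a term, and were adjusted by Benjamini-Hochberg over all genes tested.

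The genes of the rule chose the cells, so their levels are a description with no test. Mcm5, a subunit of the MCM helicase, stood at 134.4 CPM in library 1 and 172.6 in library 2 in the S phase cells, at 4.06 and 4.03 in the comparison cells and at 42.8 and 76.0 in the mitotic cells. Mcm6, another subunit, stood at 153.0 and 186.4 CPM, against 11.4 and 12.7 in comparison cells and 43.6 and 78.5 in mitotic cells. Gins2, of the GINS complex that activates the helicase, was at 143.7 and 200.0 CPM in S phase cells and at 34.6 and 51.7 in mitotic cells. Hells, a chromatin remodeller, and Uhrf1, which brings the maintenance methyltransferase to newly copied DNA, were likewise lower in the mitotic than in the S phase sums of both libraries. The levels of Rrm2 and Tyms, enzymes of deoxynucleotide supply, and of Clspn, the checkpoint mediator claspin, overlapped between the S phase and mitotic classes. Rrm2 was at 140.7 and 115.5 CPM in S phase cells and at 141.2 and 147.5 in mitotic cells, and Tyms at 162.5 and 187.7 against 173.4 and 265.5. Neither Rrm2 nor Tyms was higher in S phase than in mitotic cells within either library. Of the mitotic genes, Ube2c, the ubiquitin-conjugating enzyme of the anaphase-promoting complex, stood at 13.1 and 7.78 CPM in S phase cells and at 648.0 and 622.9 in mitotic cells. Krt14 was at 3061 and 3285 CPM in S phase cells and at 5399 and 4463 in comparison cells, while Krt5, at 2407 and 3359 against 2726 and 3867, differed less between the classes than between the libraries.

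**Figure D1:**
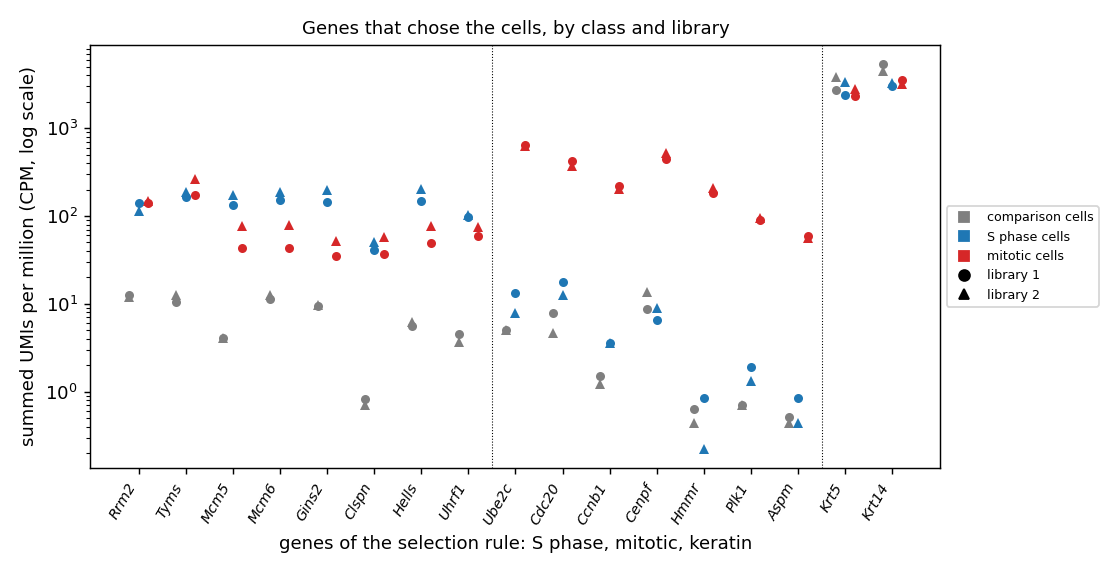
Level of each gene of the rule (vertical axis, CPM of the summed UMIs on a log scale) in comparison, S phase and mitotic cells of both libraries, 1 point per class and library. All 8 S phase genes are higher in S phase than in comparison cells, Mcm5, Mcm6, Gins2, Hells and Uhrf1 are also higher than in mitotic cells of both libraries, and the 7 mitotic genes are highest in mitotic cells.

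The thresholds cut through a continuous range. Cells with at most 1 mitotic gene numbered 153 and 112 with 4 S phase genes, just outside the rule, and 141 and 98 with 5, just inside. Mcm5 was at 91.1 and 94.1 CPM in the former and at 108.0 and 141.7 in the latter, and Rrm2 at 54.2 and 40.3 against 67.6 and 45.8. Of the members, 220 and 194 had no mitotic gene and 142 and 128 had 1. A further 86 and 80 keratinocytes with 5 or more S phase genes had 2 mitotic genes and fell outside, and in these Mki67, the proliferation antigen, was at 129.8 and 109.1 CPM, against 54.2 and 44.4 over the members. Members with 1 mitotic gene had more Top2a, the topoisomerase that untangles sister chromatids (85.8 and 96.2 CPM), than members with none (47.6 and 68.4). Birc5, survivin of the chromosomal passenger complex, was at 61.2 and 55.1 CPM against 34.0 and 31.6. For Mcm5 the same values were 132.0 and 172.2 CPM with 1 mitotic gene and 136.1 and 173.0 with none.

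Promoter sequence is shown for 4 of the 8 S phase genes because the rule took them as a set that moves together. Stretches of RefSeq promoters (GRCm38.p6; 250 bases before to 50 after each gene's start) were searched on both strands for the E2F letters TTTCCCGC, TTTCGCGC, TTTGCCGC and TTTGGCGC, which can overlap one another. At least 1 of them was found in 5 of the 7 S phase genes with an entry (Clspn, Hells, Mcm5, Mcm6 and Uhrf1), in 0 of the 7 mitotic genes and in 2.6% of all 27025 genes with an entry (2.26% of all 32851 promoters). The letters of the cell cycle homology region of mitotic promoters, TTTGAA or TTCGAA, were found in 0 of the 7 S phase genes, in 6 of the 7 mitotic genes (all but Ccnb1) and in 21.7% of all genes (19.2% of all promoters). A match is a description of letters, not evidence of a bound site. The 180 bases before the start are printed 5′ to 3′ on the gene's strand with E2F matches in capitals, for Mcm5 (chr8:75109329-75109508, plus strand, 2 overlapping matches), Mcm6 (chr1:128359706-128359885, minus strand, 3 matches), Hells (chr19:38930810-38930989, plus strand, 1 match) and, as an S phase gene with 0 matches, Tyms (chr5:30073626-30073805, minus strand).
Mcm5: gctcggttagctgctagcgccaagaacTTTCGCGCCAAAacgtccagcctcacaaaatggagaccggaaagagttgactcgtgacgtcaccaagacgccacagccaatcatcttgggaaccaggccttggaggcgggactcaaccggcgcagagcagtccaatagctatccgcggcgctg
Mcm6: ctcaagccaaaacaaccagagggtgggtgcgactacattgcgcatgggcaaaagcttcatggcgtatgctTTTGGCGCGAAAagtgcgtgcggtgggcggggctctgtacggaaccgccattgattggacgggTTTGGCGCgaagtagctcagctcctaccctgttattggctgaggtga
Hells: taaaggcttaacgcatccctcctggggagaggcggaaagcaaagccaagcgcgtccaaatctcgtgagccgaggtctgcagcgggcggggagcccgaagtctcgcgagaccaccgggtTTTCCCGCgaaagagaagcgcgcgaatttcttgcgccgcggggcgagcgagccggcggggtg
Tyms: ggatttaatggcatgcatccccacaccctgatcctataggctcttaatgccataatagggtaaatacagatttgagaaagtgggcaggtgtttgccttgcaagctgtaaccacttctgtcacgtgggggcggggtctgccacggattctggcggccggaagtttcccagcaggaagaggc

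The S phase cells were deeper than the comparison cells and held less fibroblast, immune and melanocyte RNA. For the first 2 this order turned in a stricter set, which itself filtered cells on these markers. The deposited libraries held 52344178 and 38678103 UMIs. The median S phase cell had 11924.5 UMIs in library 1 and 12673.5 in library 2, against 8394 and 8227 in comparison cells and 14159.5 and 16140 in mitotic cells, and the median mitochondrial share was 5.86% and 4.41% against 6.17% and 4.53%. Doublet scoring marked 9.39% and 5.90% of the members and 1.96% and 1.66% of the comparison cells. The libraries shared 11 barcodes, of which 0 were members in both. The 6 fibroblast markers summed to 1388 and 840.8 CPM in comparison cells and to 96.3 and 82.2 in S phase cells, the 6 immune markers to 173.2 and 142.7 against 27.3 and 11.3, and the 5 melanocyte markers to 31.4 and 21.0 against 2.75 and 8.44. The 5 endothelial markers went the other way, at 27.3 and 30.0 CPM in S phase cells and 17.6 and 11.0 in comparison cells, with Kdr and Emcn at 0 in the members and Egfl7 making most of the sum. A stricter set, added after these sums were seen, asked for 1000 CPM of Krt5 and Krt14 together in the cell and fewer than 3 markers of any other type. It left out 13 and 6 members and 100 and 35 comparison cells, after which the fibroblast markers summed to 10.3 and 8.09 CPM in comparison cells and to 17.1 and 42.6 in S phase cells, and the immune markers to 18.1 and 9.81 and to 28.1 and 11.2. These sums depend on the filter, which used the same markers. Of the immune markers Cd3e was detected in most members before it, in 41 of 362 and 14 of 322. Comparison cells held Cd3e in 109 of 1731 and 38 of 1325, while Ptprc was in 0 members.

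S phase cells made up 9.33% of the kept keratinocytes of library 1 (exact Clopper-Pearson 95% interval 8.43 to 10.3) and 10.7% of library 2 (9.63 to 11.9). These intervals cover counting error only. The share moved with depth: it was 2.36% and 3.37% among cells under 6000 UMIs, 6.13% and 5.60% from 6000 to 9000, 11.8% and 12.5% from 9000 to 14000, and 12.8% and 18.6% above 14000. With cells thinned to 5000 UMIs before the rule was applied, which left out 197 and 189 kept cells below that depth (5 and 3 of them members), the share was 4.34% (3.70 to 5.05) and 6.26% (5.40 to 7.22). These were 159 and 176 cells, of which 49 and 62 were not members at full depth. Of the 357 and 319 members that could be thinned, 110 and 114 still met the rule, 215 and 183 moved to the middle class, 32 and 21 to the comparison class, and 1 cell of library 2 lost its keratin UMIs. The share is thus a number for this rule at this depth. It leaves out cells with 5 or more S phase genes and more than 1 mitotic gene. In the stricter set it was 9.43% and 10.8%.

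Over all genes, 1418 of 12522 were higher in S phase than in comparison cells and 756 were lower at an adjusted p under 0.05, which are 11.3% and 6.04% of the genes tested, against a median log2 fold change over all genes of -0.02. In the stricter set 1269 of 12223 genes were higher and 619 lower (10.4% and 5.06%), and with depth matching as well 8.89% were higher and 6.53% lower. Of the 1418 genes higher in the full set, 1228 were higher in the stricter set, and of the 756 lower, 533 were lower there. Without the library term, which pairs the classes within a library, 400 genes were higher and 72 lower. Counts for replication genes describe what the rule selected, since they move together with its 8 genes through the cycle, and their p-values add no independent support.

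Most of the licensing machinery was higher in S phase cells. Of 13 tested genes of origin licensing that the rule had not used, 10 were higher and 0 lower, with a median log2 fold change of 2.69. Mcm3 stood at 91.4 and 148.2 CPM in S phase cells and at 5.59 and 4.47 in comparison cells, a log2 fold change of 4.52 ± 0.28 (SE). Mcm2, at 87.0 and 89.8 CPM against 8.82 and 6.93, and Mcm7, at 113.9 and 166.4 against 15.1 and 20.3, are further subunits of the helicase ring. Cdc6 and Cdt1, which load the helicase, were at 14.6 and 14.7 CPM against 1.08 and 1.40 and at 36.8 and 40.4 against 11.0 and 7.10. Gmnn, geminin, the inhibitor that blocks a second round of loading, was at 113.2 and 121.7 CPM against 19.7 and 14.5. Each of these genes was higher in S phase than in comparison cells of both libraries.

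Helicase activation and the replication fork showed the same direction throughout. All 13 tested genes of helicase activation were higher (median log2 fold change 2.54), led by Cdc45, the cofactor that completes the active helicase, at 36.0 and 33.6 CPM against 1.21 and 0.61, and Mcm10, at 9.10 and 11.6 against 0.44 and 0.35. All 27 genes of the polymerase and clamp list were higher (median 2.03). Among them Pclaf, which binds the clamp, was at 214.4 and 263.7 CPM against 13.4 and 12.2, Fen1, the flap nuclease that trims Okazaki fragments, at 62.2 and 60.4 against 7.74 and 6.14, and the clamp itself, Pcna, at 63.5 and 66.4 against 19.4 and 18.9. The log2 fold change of Pcna, 1.79 ± 0.15 (adjusted p = 5.39e-05), was smaller than those of Pclaf (4.24 ± 0.19, adjusted p = 2.81e-06) and Fen1 (3.16 ± 0.15); these differences between genes were not tested.

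Nucleotide supply gave 20 higher and 0 lower of 22 tested genes, and their median log2 fold change was 1.21. The salvage kinase Tk1 was at 91.4 and 112.2 CPM in S phase cells against 11.2 and 13.0. Rrm1, the large ribonucleotide reductase subunit, changed less, from 17.6 and 21.0 to 82.1 and 92.6 CPM. Dut, which destroys dUTP before it can be built into DNA, was at 371.4 and 465.2 CPM against 102.4 and 123.2.

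Chromatin assembly and DNA methylation genes were higher in 15 of 15 tested, with a median of 1.53, and checkpoint and repair genes in 28 of 32, with a median of 2.99. Lig1, the ligase that joins Okazaki fragments, was at 131.4 and 171.1 CPM against 14.5 and 12.6, Dnmt1, the maintenance methyltransferase, at 73.7 and 77.8 against 13.8 and 14.6, and Asf1b, a histone chaperone, at 18.2 and 15.8 against 0.89 and 0.44. Brca1, of homologous repair and chosen after its values were seen, was at 16.7 and 16.4 CPM against 0.51 and 1.05, and Chek1, the replication checkpoint kinase, also chosen after, at 16.7 and 18.9 against 1.33 and 0.88. The sister chromatid cohesion list split: 7 of 14 were higher, with Esco2 (16.3 and 13.8 CPM against 0.51 and 1.23) and Cdca5 (4.44 and 8.89 against 0.32 and 0.44) far above the list's median of 0.54.

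**Figure D2:**
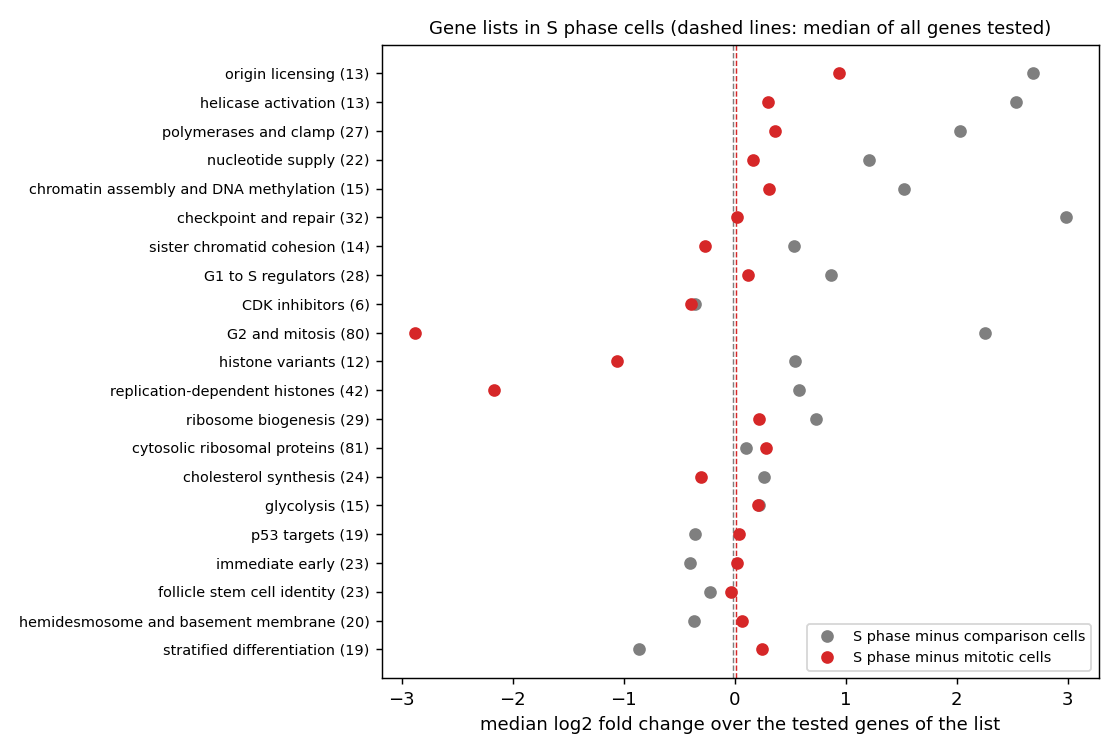
Median log2 fold change (horizontal axis) of each gene list in S phase cells, minus comparison cells in grey and minus mitotic cells in red, with the number of tested genes in brackets and the medians over all genes as dashed lines. Checkpoint and repair genes stand at 2.99 against comparison cells and at 0.02 against mitotic cells, while replication-dependent histones stand at 0.58 and -2.17.

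Many replication-dependent histones were lower in S phase than in mitotic cells. These genes supply the core and linker histones of new chromatin, and most of their mRNAs end in a stem-loop in place of the poly(A) tail on which the 3′ kit primes. Their 67 genes summed to 719.8 CPM in library 1 and 508.1 in library 2 in S phase cells, to 891.5 and 492.1 in comparison cells and to 1511 and 2356 in mitotic cells. The sum in S phase cells was thus lower than in comparison cells in library 1 and about level in library 2, and mitotic cells stood above both classes in each library. Of 42 tested, 8 were higher and 3 lower in S phase than in comparison cells (median log2 fold change 0.58), and 0 were higher and 27 lower than in mitotic cells. Hist1h1b, a linker histone gene, was at 79.8 and 74.0 CPM in S phase cells, 13.0 and 10.8 in comparison cells and 368.3 and 498.6 in mitotic cells. Hist1h2ae differed between the libraries, at 4.44 and 44.9 CPM in S phase cells and 37.8 and 420.4 in mitotic cells. The sum in comparison cells rested largely on Hist1h1c (382.7 and 149.9 CPM, 253.5 and 69.3 in S phase cells) and Hist1h2bc (300.7 and 145.5, against 171.9 and 96.2), both chosen after their values were seen. Without these 2 genes the other 65 summed to 294.4 and 342.6 CPM in S phase cells, 208.2 and 196.7 in comparison cells and 1074 and 2113 in mitotic cells, so that S phase cells were above comparison cells in both libraries. Slbp, which binds the stem-loop of histone mRNA, was at 144.8 and 121.7 CPM in S phase cells, 60.4 and 50.7 in comparison cells and 110.5 and 101.0 in mitotic cells.

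The replacement histone H2afz and the high mobility group protein Hmgb2, whose mRNAs carry a poly(A) tail, were higher in S phase than in comparison cells and higher again in mitotic cells. H2afz rose from 702.7 and 581.3 CPM in comparison cells to 1695 and 1695 in S phase cells (log2 fold change 1.45 ± 0.10, adjusted p = 1.80e-05) and stood at 3986 and 3851 in mitotic cells. Hmgb2 was at 394.2 and 327.3, 763.6 and 616.1, and 2609 and 2282 CPM in the same order. Of the 12 genes of this list 7 were higher and 1, the linker histone variant H1f0, lower in S phase than in comparison cells.

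Among the regulators of the G1 to S transition, 19 of 28 were higher and 1, Myc, was lower. E2f1, an activating E2F factor and a target of its own family, was at 44.7 and 45.8 CPM in S phase cells, 4.51 and 3.77 in comparison cells and 10.1 and 14.4 in mitotic cells (log2 fold change 3.47 ± 0.21 and 1.94, adjusted p = 1.01e-05 and 2.27e-04). E2f1 also rose with the number of rule genes detected in cells with at most 1 mitotic gene. It was at 4.41 and 2.34 CPM with 0 S phase genes and at 64.8 and 62.15 with 8. Its level thus follows the rule, and its p-values add no independent support. The cyclin E genes, whose proteins drive Cdk2 at the start of S phase, were also higher than in comparison cells: Ccne1 was at 14.0 and 14.9 CPM against 3.30 and 2.98, and Ccne2 at 15.2 and 11.8 against 2.41 and 2.98. In mitotic cells Ccne1 was at 13.5 and 17.4 CPM (log2 fold change -0.05, adjusted p = 0.925), but with cells chosen on thinned UMIs Ccne1 was higher in S phase than in mitotic cells (1.76, adjusted p = 1.99e-03). Ccnd1, cyclin D1, chosen after its values were seen, was at 514.3 and 361.5 CPM against 299.9 and 257.0 in comparison cells (log2 fold change 0.68 ± 0.10, adjusted p = 1.48e-03).

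The CDK inhibitors, which hold the cycle in check, were mixed: of 6 tested, 2 were lower and 1 was higher than in comparison cells. The same shares over all genes were 6.04% and 11.3%. Cdkn1a, the p21 inhibitor and a p53 target, was at 111.5 and 74.0 CPM in S phase cells and at 191.0 and 157.0 in comparison cells (log2 fold change -0.88 ± 0.10, adjusted p = 3.71e-04). Cdkn1b, the p27 inhibitor, was at 80.6 and 79.1 against 97.8 and 127.0 (-0.44 ± 0.11, adjusted p = 0.0224). That call was lost when a random share of 0.5 of each cell's UMIs chose the cells and the remaining UMIs were tested, at a log2 fold change of -0.39 (adjusted p = 0.0815). Cdkn2c, the p18 inhibitor, was higher, at 27.9 and 16.2 CPM against 14.5 and 11.6 (0.79 ± 0.17, adjusted p = 0.0116), but not past the threshold without the cells of the Wfdc18 Pthlh state described below (0.59, adjusted p = 0.0989). Cdkn1c (11.0 and 8.44 CPM against 15.9 and 18.9), Cdkn2b (9.74 and 2.89 against 11.2 and 4.12) and Cdkn2d (25.6 and 18.9 against 23.2 and 26.6) did not pass the test, and Cdkn2a was at or near 0 in each class. Cdkn1c passed as lower in 6 alternatives, among them depth-matched comparison cells (-1.44, adjusted p = 7.57e-03), and Cdkn2b after thinning (-1.80, adjusted p = 0.0345). Against mitotic cells Cdkn2d and Cdkn2c were lower, at log2 fold changes of -2.26 and -1.43.

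The rule allowed at most 1 of 7 mitotic genes. Of 80 other genes of G2 and mitosis, 69 were higher in S phase than in comparison cells, with a median log2 fold change of 2.26. Their levels remained far under those of mitotic cells, where 79 of 80 were higher. Top2a was at 63.7 and 80.0 CPM in S phase cells, 9.65 and 9.21 in comparison cells and 396.3 and 530.3 in mitotic cells. Cdk1, the kinase of mitotic entry, was at 60.5 and 43.8, 6.47 and 5.26, and 321.0 and 294.2 CPM in that order, and Ccna2, cyclin A2, at 15.2 and 11.6, 1.33 and 1.05, and 139.4 and 149.4. Spc24, of the outer kinetochore, reached 70.3 and 86.9 CPM in S phase cells, nearer to the mitotic 208.9 and 277.4 than was Birc5 at 45.5 and 41.3 against 445.1 and 464.2. These 5 genes were lower in S phase than in mitotic cells of both libraries.

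Against mitotic cells, 302 of 12522 genes were higher in S phase cells and 492 lower (2.41% and 3.93%). Without TMM normalization these counts were 218 and 614. Of the 13 licensing genes 5 were higher than in mitotic cells and 0 lower, with a median of 0.94, and Mcm2 (log2 fold change 1.66, adjusted p = 1.52e-04) and Mcm3 (1.59, adjusted p = 3.42e-03) led them. Of 32 checkpoint and repair genes 6 were higher and 1 lower, with a median of 0.02. Pclaf, at 486.1 and 635.6 CPM in mitotic cells, was lower in S phase cells (-1.18, adjusted p = 1.60e-03), as was Tk1 (-0.62, adjusted p = 5.50e-03). Both calls depended on the rule: with the cells chosen on thinned UMIs the log2 fold changes were 0.088 for Pclaf and 0.093 for Tk1.

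Levels were also followed over cells with at most 1 mitotic gene, ordered by how many of the 8 S phase genes were detected. Pcna went from 15.9 and 17.1 CPM in cells with 0 S phase genes to 43.8 and 46.7 with 5 and 104.8 and 76.2 with 8. Stmn1, a microtubule-destabilising protein of dividing cells chosen after its values were seen, went at the same counts from 144.9 and 191.6 to 553.0 and 782.5 and then 1101 and 1505. Klf4, a zinc finger factor of epithelial differentiation also chosen after its values were seen, went the other way, from 679.3 and 611.4 CPM through 241.6 and 323.3 to 121.9 and 300.2. Lgr5, a Wnt pathway receptor of bulge stem cells, lay between 82.2 and 109.3 CPM in library 1 and between 105.2 and 147.3 in library 2 over all counts. Median UMIs per cell rose along the same order, from 8034 and 8094.5 to 12959 and 15947, and their part in these levels was not tested.

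**Figure D3:**
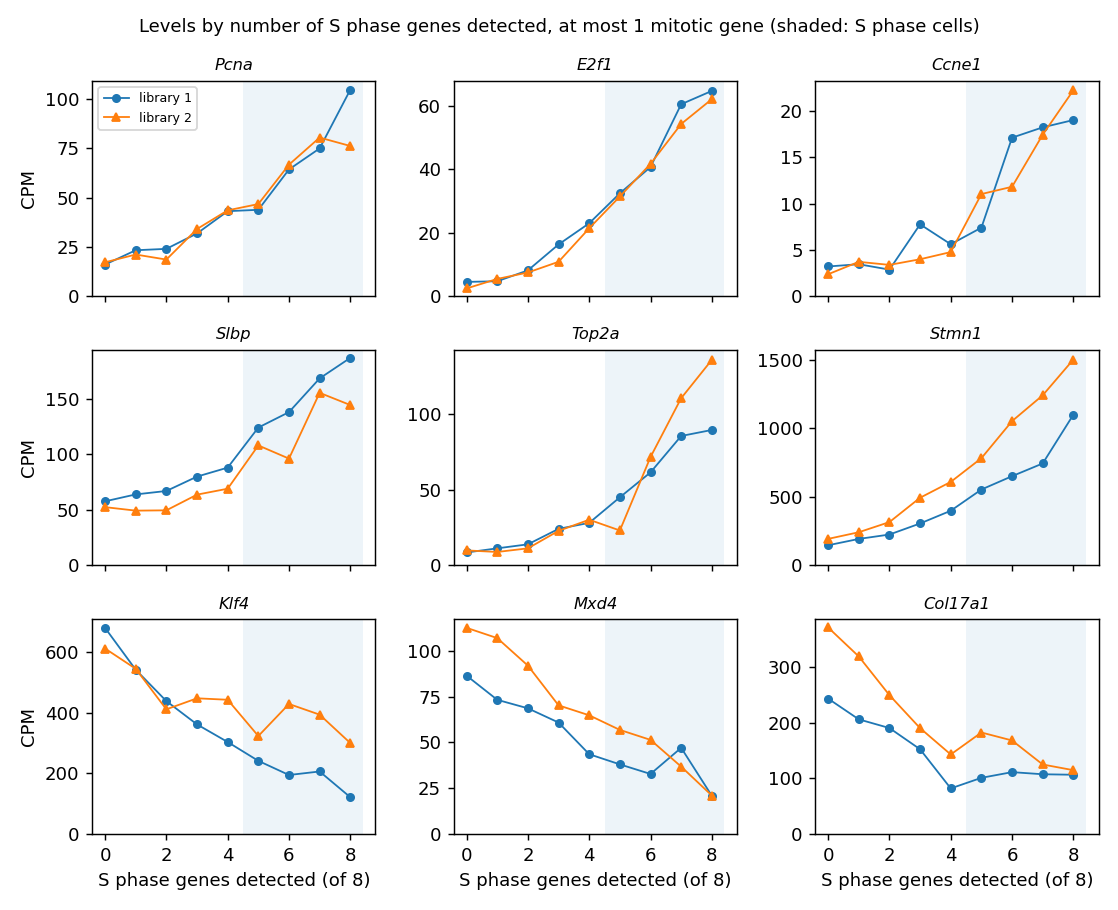
Level in CPM (vertical axis, from 0) of 9 genes in keratinocytes with at most 1 mitotic gene, by the number of S phase genes detected (horizontal axis), 1 line per library; the shaded counts are the S phase cells. Pcna, E2f1, Ccne1, Slbp, Top2a and Stmn1 are higher towards 8 genes, and Klf4, Mxd4 and Col17a1 are lower.

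Outside the replication and cell cycle lists, the 10 genes with the largest increase among those called, at 20 CPM or more in either class and moved the same way in both libraries, included several known from chromosome segregation. Cenph, Cenpk, Cenpm and Cenps encode centromere or kinetochore proteins, Haus4 a subunit of the spindle complex augmin, and Pkmyt1 a kinase that restrains Cdk1. Cenph was at 46.6 and 65.8 CPM against 2.98 and 2.98 in comparison cells (log2 fold change 4.23 ± 0.17, adjusted p = 1.61e-06), and at 43.4 and 62.3 in mitotic cells. Against mitotic cells Cenph did not pass the test (0.14, adjusted p = 0.583), but it was higher in S phase cells after thinning (1.34, adjusted p = 2.41e-05) and with separate UMIs for choosing and testing (0.92, adjusted p = 0.017). Cenpk, at 48.0 and 45.1 CPM against 3.30 and 3.16, was at 60.8 and 58.9 in mitotic cells (-0.31, adjusted p = 0.11), while Cenpm (42.8 and 58.9 against 5.20 and 6.31) was higher still there (101.6 and 138.8). Slfn9, a Schlafen family gene, was at 29.2 and 26.4 CPM in S phase cells, 1.97 and 1.49 in comparison cells and 15.9 and 15.7 in mitotic cells (log2 fold changes 4.02 and 0.87, adjusted p = 3.70e-06 and 0.0112), higher than both classes in each library. Tcf19 (35.6 and 40.4 against 3.68 and 3.51), Fam111a, a protease that binds the clamp (35.6 and 29.1 against 6.16 and 4.38), and Nrm, of the inner nuclear membrane (37.9 and 52.2 against 6.41 and 8.68), completed the 10. None of these 10 calls was lost in the stricter set, in which the smallest of their log2 fold changes was 2.61 for Nrm.

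Genes of cell growth were higher in part. Of 29 ribosome biogenesis genes 23 were higher and 0 lower, with a median log2 fold change of 0.74 against -0.02 over all genes, and 19 were higher in the stricter set. With the stricter set matched in UMIs per cell, 15 were. Nop56, of the particles that modify ribosomal RNA, was at 139.3 and 139.1 CPM against 61.1 and 57.3 (1.27 ± 0.11, adjusted p = 7.41e-05), and Nhp2, of the same machinery, at 276.8 and 282.4 against 139.1 and 138.5 (1.05 ± 0.09, adjusted p = 7.07e-05). Ranbp1, a regulator of nuclear transport and chosen after its values were seen, was at 532.9 and 522.3 CPM against 197.1 and 169.4 (1.57 ± 0.12, adjusted p = 3.90e-05). The cytosolic ribosomal proteins did not show this: 1 of 81, Rpsa, was higher (4446 and 5469 against 3682 and 3931 CPM) and that call was lost in the stricter set (adjusted p = 0.0652). Against mitotic cells 12 of the 81 were higher and 0 lower, at a median of 0.28. Cholesterol synthesis had 6 of 24 higher, among them Acat2 (27.9 and 41.1 CPM against 14.9 and 19.8) and Idi1 (57.1 and 62.2 against 34.5 and 44.3). Glycolysis was mixed, with 4 higher and 2 lower of 15: Gapdh was at 388.8 and 328.4 against 299.4 and 202.3 CPM and Aldoa at 260.3 and 220.2 against 310.5 and 304.7. For these lists the shares over all genes were 11.3% higher and 6.04% lower than in comparison cells. Lists this small would hold a few calls at those shares. The calls of Pfkp (lower) and Pgam1 (higher) were lost after thinning (-0.19, adjusted p = 0.454) and against depth-matched cells (0.42, adjusted p = 0.0584) respectively.

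The 10 lowest genes by the naming rule are known from immune cells and fibroblasts. The antigen presentation gene Cd74 was at 2.12 and 3.999 CPM in S phase cells and 92.8 and 83.2 in comparison cells, and the fibroblast collagen Col3a1 at 22.0 and 6.44 against 488.2 and 253.1. In the stricter set their log2 fold changes were 0.52 (adjusted p = 0.428) and 0.013 (adjusted p = 0.988). H2-Aa, Retnla, Lyz2, Ccl8, H2-Eb1 and Mfap5 stood at 0 to 2.33 CPM in S phase cells, and Col1a1 and Col1a2 at 14.2 to 21.4. Lists for keratinocytes were therefore read in both sets. Those described next kept their direction in the stricter set except where stated.

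Adhesion to the basement membrane was lower in part. Of 20 genes of hemidesmosomes and the basement membrane 8 were lower and 0 higher, with a median log2 fold change of -0.37, and 8 were lower in the stricter set. Col17a1, the transmembrane collagen of hemidesmosomes, was at 106.2 and 152.0 CPM in S phase cells, 225.4 and 346.2 in comparison cells and 111.3 and 118.8 in mitotic cells (-1.10 ± 0.11, adjusted p = 1.60e-04; -1.14 in the stricter set). Lamb3, a laminin 332 chain, was at 18.4 and 32.2 CPM against 33.8 and 61.7, Dst, dystonin, at 221.6 and 368.1 against 360.8 and 522.6, and the integrin Itga6, chosen after its values were seen, at 109.4 and 93.5 against 146.2 and 153.4. Nid1, among the lower genes in the full set, turned to a log2 fold change of 1.07 in the stricter set (adjusted p = 0.326).

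Genes of stratified differentiation were lower in 11 of 19 tested and higher in 0 (median -0.86), with 10 of 19 lower in the stricter set. Galectin 3, Lgals3, was at 161.7 and 207.1 CPM in S phase cells, 546.9 and 672.4 in comparison cells and 189.0 and 174.8 in mitotic cells (-1.69 ± 0.11, adjusted p = 1.11e-05; -1.67 in the stricter set). Sbsn, suprabasin, was at 353.2 and 295.9 against 642.2 and 570.0 CPM, and the calmodulin-like Calml3 at 18.2 and 56.2 against 50.1 and 181.3. Cst6, cystatin E/M, at a log2 fold change of -2.04, came to -0.17 (adjusted p = 0.735) against the smaller set of comparison cells drawn to match the members in UMIs, and to -2.61 after thinning. In the stricter set the lowest genes, chosen after it was made, included Tppp3 (3.18 and 4.67 against 31.9 and 30.0 CPM in the full set), the calcium-binding S100a4 (6.14 and 9.11 against 45.8 and 75.7), the annexin Anxa8 (9.74 and 55.1 against 62.3 and 168.0), the keratin Krt6a (27.3 and 25.1 against 113.9 and 77.5) and the prolactin receptor Prlr (18.4 and 14.7 against 45.6 and 68.7). Each of these 5 was lower in both libraries.

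Follicle stem cell identity genes were lower in 6 of 23 and higher in 0, at a median log2 fold change of -0.22. The shares over all genes were 6.04% lower and 11.3% higher. The 2 factors with the largest decreases, Nfatc1 and Foxc1, are transcription factors known for quiescence of these cells. Nfatc1 was at 2.33 and 14.2 CPM in S phase cells, 15.9 and 34.1 in comparison cells and 6.13 and 16.8 in mitotic cells (-1.63 ± 0.33, adjusted p = 9.86e-03; -1.54 and 6.06e-03 in the stricter set). Foxc1 was at 4.23 and 11.8, 17.6 and 24.1, and 8.10 and 12.9 CPM in that order (-1.40 ± 0.22, adjusted p = 2.71e-03). Neither call held without the Wfdc18 Pthlh state cells, where the log2 fold changes were -1.47 (adjusted p = 0.123) and -1.11 (adjusted p = 0.0577). Id3, a target of BMP signalling, was at 858.0 and 789.6 CPM against 1048 and 1048, a log2 fold change of -0.31 that came to 0.057 within the Wfdc18 Pthlh state. Postn, periostin, was at 74.3 and 87.3 against 151.3 and 197.6 CPM, and its call was lost in the stricter set matched for depth (-0.39, adjusted p = 0.0832). Lgr5 (94.0 and 129.7 against 96.7 and 129.3 CPM), Lhx2 (156.8 and 204.2 against 172.4 and 184.0) and Tcf7l1 (42.8 and 34.0 against 46.9 and 46.1) did not pass the test, with log2 fold changes of 0.03 ± 0.11, 0.05 ± 0.11 and -0.24 ± 0.13. Krt15 (-0.31 ± 0.13), Sox9 (-0.18 ± 0.09) and Cd34, the sorting marker (84.0 and 63.5 against 93.2 and 145.5 CPM, -0.62 ± 0.19, adjusted p = 0.0501), also missed the threshold. For Sox9 the log2 fold change was -0.59 (adjusted p = 3.29e-03) when the tested UMIs were not those that chose the cells. These 6 genes were chosen after their values were seen.

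Immediate early genes, which respond within minutes to growth signals and to handling of tissue, were lower in 14 of 23 and higher in 0, with a median of -0.40. The same count was found in the stricter set, and 19 were lower when that set was also matched for depth. Klf4 was at 206.8 and 368.8 CPM in S phase cells, 613.1 and 579.7 in comparison cells and 332.4 and 441.0 in mitotic cells (-1.06 ± 0.18, adjusted p = 4.45e-03). Myc was at 30.9 and 19.8 CPM against 65.5 and 35.4 (-0.94 ± 0.12, adjusted p = 6.70e-04), Dusp1, a phosphatase of MAP kinases, at 307.3 and 181.3 against 452.5 and 293.9, and Fosb at 407.0 and 616.7 against 683.4 and 834.2. Myc levels overlapped between the classes across libraries but were lower in S phase cells within each. Mxd4, which competes with Myc for its partner Max, was also lower, at 36.6 and 43.8 CPM against 80.1 and 109.9 (-1.19 ± 0.12, adjusted p = 2.26e-04), and Mxd4 was chosen after its values were seen. Against mitotic cells 0 of the 23 immediate early genes were called in either direction, and 0 of the 23 identity and 0 of the 20 adhesion genes. Over all 12522 genes 2.41% were called higher and 3.93% lower in that contrast. Lists of this size would thus hold few calls at those shares, and the counts of 0 do not show that the classes are alike. Of 19 p53 targets, 4 were lower than in comparison cells (Cdkn1a, Bbc3, Mdm2, Phlda3) and 1 higher. Over all genes 6.04% were lower and 11.3% higher than in comparison cells. Phlda3, at 112.8 and 87.5 against 142.9 and 125.7 CPM, lost its call against depth-matched cells (adjusted p = 0.11), Mdm2 in DESeq2 (adjusted p = 0.07), and Bbc3 and Mdm2 within the Wfdc18 Pthlh cells (adjusted p = 0.0613 and 0.0978).

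**Figure D4:**
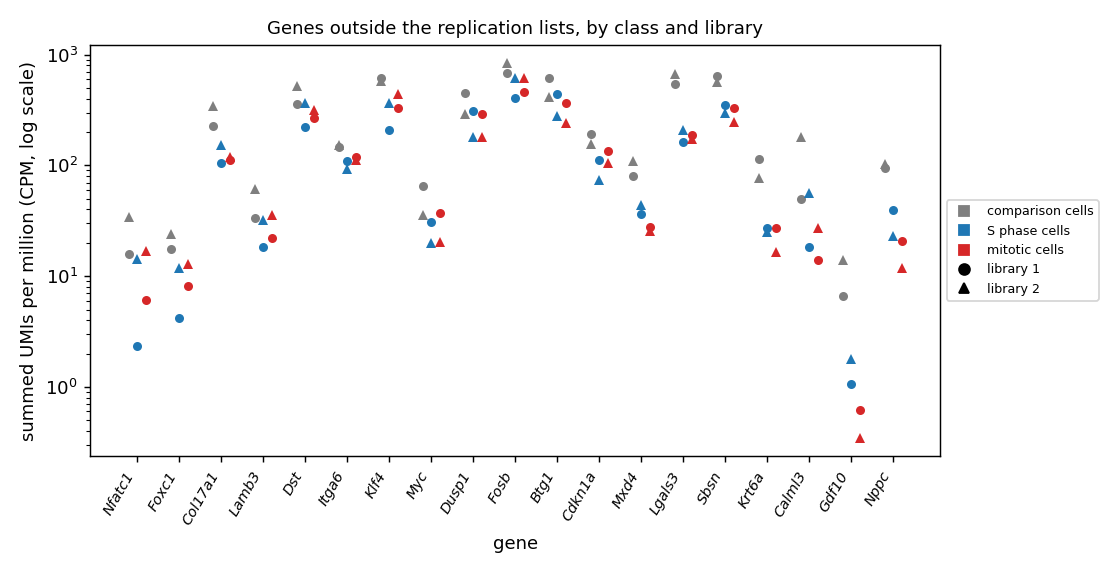
Level of 19 genes outside the replication lists (vertical axis, CPM of the summed UMIs on a log scale) in comparison, S phase and mitotic cells of both libraries, 1 point per class and library. The 19 were picked as genes lower in S phase than in comparison cells, so that direction follows from the choice. Over all 12522 genes 6.04% were called lower. For Col17a1 or Lgals3 the S phase cells are near the mitotic cells.

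The follicle holds several keratinocyte states, each known here by 3 or 4 genes chosen from earlier clusters of these data, and a cell was counted in a state when at least 2 of them were detected, so a cell can be in several. At 5000 UMIs per cell the Gdf10 Nppc state took up 5.04% and 2.19% of S phase cells (intervals 3.02 to 7.85 and 0.89 to 4.47) and 10.1% and 9.03% of comparison cells (8.70 to 11.7 and 7.46 to 10.8), the shares before thinning being 9.39% and 6.83% against 14.7% and 12.8%. Mitotic cells showed this state in 1.60% and 1.43% after thinning, so a low share was not particular to S phase cells. All 4 of its genes were lower in S phase cells, such as Nppc, the precursor of C-type natriuretic peptide, at 39.6 and 23.1 CPM against 94.0 and 102.6 (-1.62 ± 0.22, adjusted p = 1.15e-03), and the growth factor gene Gdf10 at 1.06 and 1.78 against 6.60 and 14.0 (-2.78 ± 0.36, adjusted p = 8.91e-04). Among the Gdf10 Nppc cells themselves, 2.50% and 1.20% met the rule after thinning (0.92 to 5.36 and 0.15 to 4.26), against 4.34% and 6.26% of all keratinocytes. Of kept cells without keratin UMIs, 0 of 33 and 0 of 31 showed this state after thinning, which allows shares of up to 10.6% and 11.2% by the exact interval, at median depths before thinning of 10636 and 11890 UMIs.

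The Krt24 Grem1 state took up, after thinning, 0.56% and 9.72% of S phase cells (0.068 to 2.01 and 6.70 to 13.5) against 2.32% and 16.8% of comparison cells (1.64 to 3.18 and 14.7 to 19.0). Before thinning the shares were 0.83% and 20.8% against 3.06% and 18.2%, so the order in library 2 depended on thinning. Thinned mitotic cells showed this state in 0% and 6.15%. Its genes summed to 22.4 and 160.9 CPM in S phase cells and 64.8 and 385.4 in comparison cells, and Krt24, a keratin, was at 3.18 and 13.1 CPM against 3.94 and 71.7 (-1.94 ± 0.34, adjusted p = 4.59e-03). In library 1 Krt24 was detected in only 2 of 362 S phase cells and 17 of 1731 comparison cells, so its difference lay mainly in library 2. The upper follicle state was rare in both classes, at 0.56% and 0.31% of thinned S phase cells against 1.25% and 1.94%. In thinned mitotic cells it was found in 0.64% and 1.84%.

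The Krtdap Sostdc1 state set the libraries apart. It took up 3.08% of thinned S phase cells in library 1 (1.55 to 5.45) and 36.7% in library 2 (31.4 to 42.2), against 6.76% and 26.1% of comparison cells, and in cells without keratin UMIs it was found in 9.09% of 33 and 0 of 31. Thinned mitotic cells showed this state in 5.59% and 38.3%, so the higher share in library 2 was not particular to S phase cells. Within it, 3.09% and 9.25% of cells met the rule. Sms, spermine synthase, one of its genes, was at 8.47 and 240.4 CPM in S phase cells and 6.73 and 58.8 in comparison cells. With these cells left out, 1470 genes were higher and 1115 lower in S phase than in comparison cells (12.4% and 9.37%). The Wfdc18 Pthlh state took up 41.5% and 20.7% of thinned S phase cells (36.3 to 46.8 and 16.4 to 25.6), against 35.6% and 20.8% of comparison cells (33.3 to 38.0 and 18.5 to 23.2). The Edn2 Dio3 state took up 21.3% and 13.5% against 13.7% and 15.2%, and the Fgf5 Fbln5 state 47.9% and 30.4% against 34.2% and 33.4%; in both, the S phase share was the higher in library 1 and the lower in library 2. Cells without keratin UMIs showed the Fgf5 Fbln5 state in 18.2% and 22.6%. Differences in shares between classes were not tested.

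**Figure D5:**
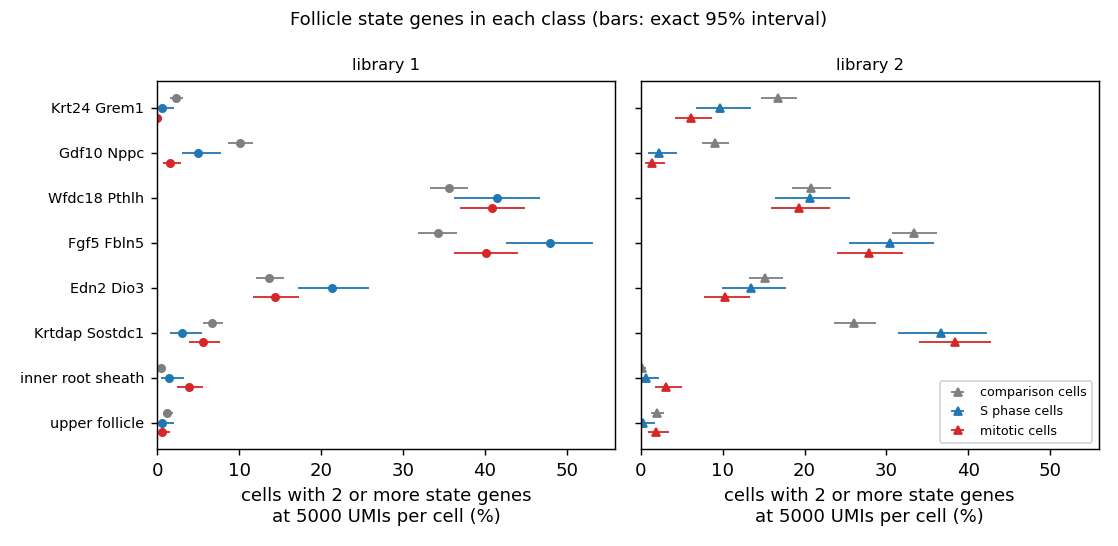
Share of cells in each follicle state after thinning to 5000 UMIs (horizontal axis, percent, with exact 95% intervals) in comparison, S phase and mitotic cells, 1 panel per library. The Gdf10 Nppc, Krt24 Grem1 and upper follicle shares are lower in S phase than in comparison cells in both libraries, and the Krtdap Sostdc1 share is lower in library 1 and higher in library 2.

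Single cells decided a few values. Hba-a1, a haemoglobin gene chosen after its values were seen, was at 0.63 and 201.7 CPM in S phase cells because 1 member of library 2 held 902 of its 908 UMIs, and its log2 fold change of 5.24 came to -0.98 without the doublet calls. Dcn, a fibroblast proteoglycan, had 152 UMIs in 13 members of library 1, of which 90 were in 1 cell, and 196 UMIs in 25 members of library 2; it was lower in the full set (-1.87) and higher in the stricter one (3.81). Of the 4 inner root sheath keratins, Krt28 was higher (45.3 and 19.3 CPM against 11.2 and 4.38, log2 fold change 2.06 ± 0.32, adjusted p = 2.63e-03), a call lost in the stricter set tested on UMIs that did not choose the cells (adjusted p = 0.258) and turned within the Wfdc18 Pthlh state (-1.26). Egfl7, among the endothelial markers, was at 15.0 and 23.3 CPM in S phase cells, 6.54 and 7.10 in comparison cells and 13.8 and 18.6 in mitotic cells (1.51 ± 0.23, adjusted p = 2.03e-03), while Cdh5 was at 0.21 and 0 in the members.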

How the data were processed

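Values are raw UMI counts per gene and cell, as deposited by the authors in 2 filtered matrices. The submitters' processing notes name Cell Ranger 3.1.0, Seurat 3.1 and the build mm10. The aligner settings, like the gene models, were not given in the sources used here. In all, the matrices held 31053 features and 6592 and 5080 barcodes. The rule left 3918 and 3041 cells, of which 39 and 36 had no Krt5 or Krt14. No doublets were removed in the main comparisons. Doublet calls were the highest Scrublet scores, 0.8% per 1000 barcodes (scanpy 1.11.5).

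UMIs were summed per class and library into 8 sums. These were fitted with edgeR 4.0.16 (R 4.3.3; TMM, filterByExpr, quasi-likelihood test, two-sided, adjusted p under 0.05, the library as a term, 3 residual degrees of freedom), and both classes of a contrast come from the same libraries, so the libraries pair them. The 17 genes of the rule got no p. On simulated counts for 12235 genes the fit recovered 70.71% of 99 genes changed by 1 on the log2 scale and 19.59% of 97 changed by 0.5, with 6 false calls. Apart from those changes, the simulation gave each gene a single mean level in all sums. It used the same fixed spread for every gene and had no differences between libraries. The 6 false calls are therefore not an error rate for the real data. Scripts used Python 3.11.15 and pandas 2.3.3.

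Named genes were the 4 of smallest p in each list with 8 or more tested members, genes of known order in S phase, the 10 highest and 10 lowest called genes outside the lists at 20 CPM or more, and all CDK inhibitors and markers. The members, lists and state genes were chosen with earlier results of these data known. Alternatives were DESeq2 1.42.0, library size scaling, other filters, thresholds and cell sets, thinning, and separate UMIs for choosing and testing. The stricter keratinocytes were chosen after seeing the data.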

Additional observations from a re-analysis of the deposited data

How the results depend on the processing

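Of the values of single genes under all alternatives, 27 changed sign. Against comparison cells, 915 genes were higher without the Wfdc18 Pthlh cells, and 1507 were lower with no filter on low counts. The libraries pair the classes. Without the library term as a paired block, 400 genes were higher and 72 lower than in comparison cells, and 8 higher and 172 lower than in mitotic cells. Against mitotic cells, higher counts were 660 with no filter, 194 with 6 or more S phase genes, 484 after thinning, 882 without the Krtdap Sostdc1 cells and 137 without the Wfdc18 Pthlh cells, and lower counts were 841 with no filter, 316 with separate UMIs for choosing and testing and 790 without the Krtdap Sostdc1 cells. Both counts are sets of genes that only partly overlap: of the 1418 genes higher than in comparison cells, 1050 were higher with separate UMIs, 1167 with depth-matched cells and 1003 in DESeq2, and of the 756 lower, 408, 620 and 485 were. Gene counts could not be tested with 1 library left out, since no residual degrees of freedom remain.

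The share of S phase cells was 4.34% and 6.26% after thinning, 13.3% and 14.4% with 4 or more S phase genes, 5.70% and 7.45% with 6 or more, 5.67% and 6.46% with 0 mitotic genes, and 11.5% and 13.4% with at most 2.

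The 27 values labelled as turned in sign were as follows, and the cause was not tested. S phase minus mitotic log2 fold changes after thinning were 0.088 for Pclaf, 0.093 for Tk1, 1.04 for Rad51ap1, 1.76 for Ccne1, 1.09 for Nrm, -0.055 for Mxd4 and 0.49 for Ranbp1, and Krt24 was at -0.14 without the Krtdap Sostdc1 cells. S phase minus comparison values within the Wfdc18 Pthlh cells were 0.057 for Id3, 0.86 for Acta2 and -1.26 for Krt28. In the stricter set Nid1 was at 1.07, Cd74 at 0.52, Col3a1 at 0.013, Krt27 at 2.44 and Dcn at 3.81, with depth matching also Col3a1 at 1.17, Krt27 at 2.56 and Dcn at 3.34, and with separate UMIs Cd74 at 1.09 and Dcn at 3.59. Nsg1 was at -0.13 without the Krtdap Sostdc1 cells. Against depth-matched cells Krt25 was at 2.47 and Krt27 at 2.93, and Krt27 at 3.06 without the Wfdc18 Pthlh cells. Hba-a1 was at -0.98 without doublet calls and between -0.57 and 6.05 with 1 library left out.

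How depth and the number of cells limit the calls was not tested.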
